A study of Mus musculus with 6 samples.

Results

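The alpha and beta crystallins were followed in retinas of newborn mice lacking cyclin D1. Members were taken as every probe set of the deposited array table annotated to 1 gene symbol among Cryaa, Cryab, Cryba1, Cryba2, Cryba4, Crybb1, Crybb2 and Crybb3. All 8 genes were found, with 10 probe sets, out of 18193 named genes and 34945 single-symbol probe sets. Retinas of wildtype neonates and of cyclin D1 -/- neonates were dissected in buffered saline, pooled, and hybridised as biotin-labelled cRNA to Affymetrix arrays, with 3 numbered pools and 3 arrays per genotype. The animals in a pool, the strain and any sharing of litters are not stated in the labels, so p-values reflect only how far these pools differ, which may be technical. The study asked how loss of cyclin D1, a partner of the kinases that drive cells from G1 into S phase, changes gene expression in the retina.

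Crystallins are the main soluble proteins of the lens, which they keep transparent and refractive. Alpha crystallins are small heat shock proteins that hold other proteins in solution, whereas beta crystallins are structural proteins that share a fold with the gamma crystallins and are made chiefly in lens fibre cells. Several crystallin transcripts, among them those of Cryab and Crybb2, are also known from neurons and glia of the retina. The lens lies against the vitreous and is removed from the eye cup when a retina is dissected. In bulk RNA such as this, more cells of a type and more RNA per cell cannot be told apart.

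The label of each pool was checked on the targeted gene. Ccnd1 levels were 12.43, 12.35 and 12.56 in wildtype pools 1, 2 and 3, and 8.86, 8.81 and 8.92 in the knockout pools, so all 6 arrays lay on the side that their label names. Levels here are log2 of the quantile-normalised signal plus 16, and differences are knockout minus wildtype. The level of a probe set also depends on its probes, so levels are compared between pools and not between genes. The arrays' median deposited signal was 40.6 to 50.5 units, and their number limits the precision. Arrays 1 and 2 of a genotype were unusually alike (SD of their log2 difference 0.22 and 0.21, against 0.28 to 0.52 for all other pairs). Whether they share tissue or RNA is not known. Arrays were ranked on the mean log2 of BioB and BioC hybridisation controls and cut into a brighter and a dimmer set of 3. The brighter set was wildtype pool 3 (10.15), knockout pool 2 (9.97) and knockout pool 1 (9.82). The dimmer set was wildtype pools 1 and 2 (9.66 each) and knockout pool 3 (9.53). No clear gap lies at the cut, so the sets are a division by rank. Differences within each set are given with the results. A list of 14 retinal marker genes, all bright enough to be tested, held 0.163% to 0.189% of the summed signal in wildtype pools and 0.179% to 0.197% in knockout pools. No other tissue is at hand for comparison, so these shares describe the pools and do not check the tissue label.

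All 8 alpha and beta crystallins were higher in every knockout pool than in any wildtype pool. The limma test at an adjusted p under 0.1 was passed by 7 of them, with rises of 4.25-fold (Crybb3) to 6.69-fold (Cryab), and none was lower. The number was 6 without wildtype pool 1, where 1.04% of all tested genes were called higher, and 4 without knockout pool 1, 2 or 3, where 0.623%, 0.632% and 1.17% were. Crybb2 did not pass (log2 difference 2.00, adjusted p = 0.233). Over all 10916 tested genes, 2.03% were called higher and 10.5% had every knockout pool above every wildtype pool. The median difference of the 8 genes was 2.39, beside 0.02 for all tested genes. The 20 tested genes with the largest upward differences included all 8 of these crystallins and 6 gamma crystallins. Crybb2 ranked 20, at the end of that list. Its wildtype mean of 5.88 was below the level of 6.21 needed to be tested. It therefore entered these counts, the median and the ranking because of its knockout pools.

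The levels did not form 2 tight groups. In all 8 genes wildtype pool 3 was the lowest array, wildtype pools 1 and 2 came next, then knockout pools 1 and 2, and knockout pool 3 was the highest. This order was met by 324 tested genes (2.97%), and by 63 of the 222 called higher. The 8 genes held 0.105%, 0.105% and 0.0393% of the summed signal in wildtype pools 1 to 3. Their share in the knockout was 0.305% and 0.293% for the first pair of pools and 0.680% for pool 3. The SD within genotypes ran from 0.58 for Cryba1 to 1.18 for Crybb2, larger than in 98.4% to 99.9% of tested genes.

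**Figure D1:**
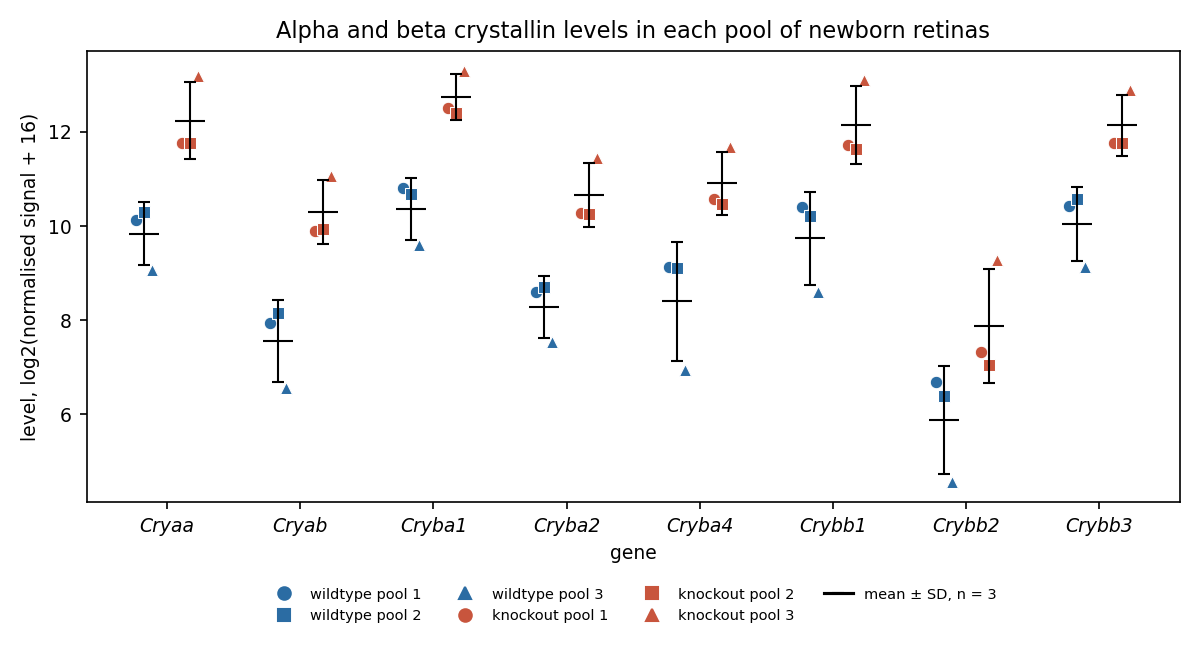
Level of each alpha and beta crystallin gene, as log2 of normalised signal plus 16, in the 3 wildtype (blue) and 3 knockout (red) pools, with black bars for mean ± SD (n = 3 pools). In each gene the wildtype pool 3 triangle is the lowest point and the knockout pool 3 triangle the highest, and the genotypes do not overlap.

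Among the alpha crystallins, Cryaa encodes the subunit that is largely restricted to the lens. Its level was 10.14, 10.30 and 9.07 in wildtype pools 1, 2 and 3, and 11.76, 11.77 and 13.19 in knockout pools 1, 2 and 3. It rose from 9.84 ± 0.67 to 12.24 ± 0.82 (SD, n = 3), or 5.29-fold (log2 difference 2.40, SE 0.44, limma adjusted p = 0.0283). Knockout pool 3 stood 1.42 above the mean of the other knockout pools, nearly as far as those stood above wildtype pools 1 and 2 (1.55).

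Cryab encodes the more widely expressed alpha subunit, also found in muscle, heart and glia and induced by stress. Its brightest probe set read 7.95, 8.16 and 6.56 in wildtype and 9.89, 9.93 and 11.06 in knockout pools. The rise was 6.69-fold (log2 difference 2.74, SE 0.46, adjusted p = 0.0194), the third largest among tested genes. A second probe set showed the same order of pools, with levels of 7.13 ± 0.94 and 9.51 ± 0.68 (log2 difference 2.38, adjusted p = 0.0365 in the fit over 17206 probe sets, of which 1.95% were higher). The third Cryab probe set was dim, at 4.64 ± 0.43 and 4.91 ± 0.13, and was below the level of 6.21 needed to be tested. Of the 10 probe sets, 9 were bright enough for that fit and 8 were higher.

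Cryba1, which yields the βA3 and βA1 proteins, had the smallest adjusted p of the 8. Its levels were 10.81, 10.69 and 9.60 in wildtype and 12.52, 12.40 and 13.29 in knockout pools. The gene rose 5.18-fold (log2 difference 2.37, SE 0.34, adjusted p = 0.0108), and its lowest knockout pool lay 1.59 above its highest wildtype pool. Cryba2, another acidic beta crystallin, had its pools in the same order. Its levels of 8.61, 8.70 and 7.53 in wildtype stood against 10.27, 10.25 and 11.44 in knockout pools, a 5.19-fold rise (log2 difference 2.38, SE 0.39, adjusted p = 0.0191).

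Cryba4, also an acidic beta crystallin, had a deep drop in wildtype pool 3. That pool read 6.95 beside 9.14 and 9.12 in wildtype pools 1 and 2, whereas the knockout pools read 10.57, 10.48 and 11.69. The 5.70-fold rise therefore came with a wide error (log2 difference 2.51, SE 0.59, adjusted p = 0.0740). The call was lost without wildtype pool 1 (adjusted p = 0.106) and without knockout pool 1, 2 or 3 (0.205, 0.179 and 0.225).

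The basic beta crystallin Crybb1, a product of lens fibre cells, read 10.40, 10.22 and 8.60 in wildtype and 11.73, 11.63 and 13.10 in knockout pools. It rose 5.34-fold (log2 difference 2.42, SE 0.53, adjusted p = 0.0572). Crybb3, another basic member, read 10.43, 10.58 and 9.14 in wildtype and 11.76, 11.76 and 12.89 in knockout pools. It rose 4.25-fold (log2 difference 2.09, SE 0.42, adjusted p = 0.0429). Both calls were lost without any 1 knockout pool (adjusted p = 0.131 to 0.155 for Crybb1 and 0.110 to 0.118 for Crybb3).

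Crybb2 encodes the most abundant beta crystallin of the adult lens. Its deposited signal was 83.0, 60.9 and 9.0 units in wildtype and 145.4, 124.9 and 605.6 units in knockout pools. On the log2 scale these were 6.68, 6.38 and 4.57 against 7.33, 7.05 and 9.27. The gap between the lowest knockout and the highest wildtype pool was only 0.37. Its wildtype mean of 5.88 was below the level needed for testing, so the gene was tested because of its knockout pools.

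The steps between pools varied from gene to gene. Wildtype pool 3 minus the mean of wildtype pools 1 and 2 was -1.13 (Cryba2) to -2.18 (Cryba4) on the log2 scale. Knockout pool 3 lay 0.83 (Cryba1) to 2.09 (Crybb2) above the mean of the other knockout pools. Between pools 1 and 2 of each genotype the difference was 0.66 for Crybb2, 1.26 to 1.71 for Cryaa, Cryba1, Cryba2, Cryba4, Crybb1 and Crybb3, and 1.86 for Cryab, or 1.58-fold to 3.63-fold. Between pools 3 it was larger in each gene, at 12.9-fold for Cryba1 and 26.8-fold for Cryba4. The added 16 units shrink these values for Crybb2, whose signal in wildtype pool 3 was only 9.0 units, so its place among the 8 depends on the scale. No test of the difference between 1 member's change and another's was run.

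**Figure D2:**
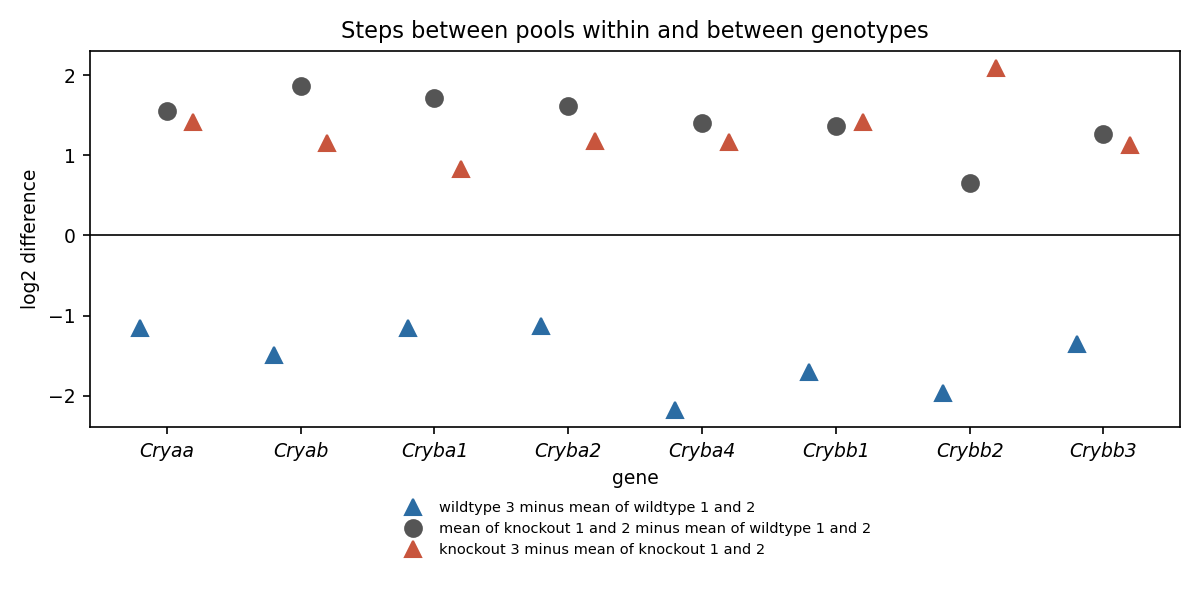
Log2 differences between pools for each gene: wildtype pool 3 against the mean of wildtype pools 1 and 2 (blue), the mean of knockout pools 1 and 2 against the mean of wildtype pools 1 and 2 (grey), and knockout pool 3 against the mean of knockout pools 1 and 2 (red). The grey points run from 0.66 for Crybb2 to 1.86 for Cryab, and for Crybb1 and Crybb2 the step up to knockout pool 3 is the larger.

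With every knockout pool above every wildtype pool, differences within both sets of arrays had to be positive, and their sign is no check. In the set with brighter controls, where knockout pools 1 and 2 were compared with wildtype pool 3 alone, they were 2.61 (Crybb2) to 3.58 (Cryba4). In the dimmer set, where knockout pool 3 alone was compared with wildtype pools 1 and 2, they were 2.39 (Crybb3) to 3.01 (Cryab). Without both pools 3, all 8 genes were called higher, with adjusted p from 7.31e-05 to 0.0258. That fit rests on the 2 most alike pairs of arrays and called 17.6% of all tested genes higher, and in it the genotypes also coincide with the control sets. When the alike pools were averaged to 1 sample, so that each genotype had 2, none of the 8 was called (limma adjusted p from 0.108 for Cryba1 to 0.505 for Crybb2), although all 8 had an unadjusted p under 0.05, as had 3.44% of tested genes in the upward direction.

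Of these genes 4 lie in pairs on mouse chromosome 5, where Cryba4 neighbours Crybb1 and Crybb2 neighbours Crybb3 in the RefSeq gene order. Cryba2 is on chromosome 1, Cryab on 9, Cryba1 on 11 and Cryaa on 17. The nearest tested genes on either side that are no crystallins numbered 12. None of them was higher, and their differences ran from -0.93 to 0.34. The 1 called was Mn1, beside Cryba4, which fell from 8.11 to 7.19 (log2 difference -0.93, adjusted p = 0.0108), opposite to Cryba4 itself. Hspb2, a small heat shock gene next to Cryab, was too dim to be tested, at 5.63 and 5.90 in the wildtype and knockout means.

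The promoters of these genes were read from RefSeq (GRCm38.p6), which gave an entry for 7 of the 8, all but Cryab. The 250 bases before the annotated start were searched on both strands for 4 motifs. The core TGCTGA, to which Maf factors of the lens bind, was found in 6 of 7 windows, against 16.1% of 32851 mouse promoters. It was absent from the Crybb2 window. The TATA box as TATAAA was found in 2 of 7 against 12.4%, the Sox core AACAAT in 1 of 7 (Crybb1) against 9.42%, and the heat shock element core GAANNTTC in 0 of 7 against 6.69%. The table has 1 start per member, and a transcript that begins elsewhere has another promoter. A match describes letters only, and a link between the motifs and the levels was not tested. The 150 bases before the start of the 6 genes with a Maf core are shown 5′ to 3′ on the gene's own strand, with capitals for TGCTGA, its reverse complement TCAGCA, and TATAAA.
Cryaa (chr17:31677781-31677930, plus strand): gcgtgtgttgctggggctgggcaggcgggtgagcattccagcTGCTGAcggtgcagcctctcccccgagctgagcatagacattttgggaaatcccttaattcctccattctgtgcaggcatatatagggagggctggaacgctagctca
Cryba1 (chr11:77725294-77725443, minus strand): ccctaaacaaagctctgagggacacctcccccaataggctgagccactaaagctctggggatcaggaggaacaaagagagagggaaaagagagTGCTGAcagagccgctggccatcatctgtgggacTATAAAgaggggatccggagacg
Cryba2 (chr1:74893144-74893293, minus strand): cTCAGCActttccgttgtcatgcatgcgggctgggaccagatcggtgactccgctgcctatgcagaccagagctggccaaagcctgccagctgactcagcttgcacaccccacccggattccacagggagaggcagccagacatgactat
Cryba4 (chr5:112252519-112252668, minus strand): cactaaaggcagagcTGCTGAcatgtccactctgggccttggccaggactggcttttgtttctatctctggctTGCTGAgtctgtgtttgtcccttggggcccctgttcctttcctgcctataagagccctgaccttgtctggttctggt
Crybb1 (chr5:112255670-112255819, plus strand): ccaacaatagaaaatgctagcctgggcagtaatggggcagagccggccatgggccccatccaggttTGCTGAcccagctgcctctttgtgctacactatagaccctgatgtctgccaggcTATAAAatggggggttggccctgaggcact
Crybb3 (chr5:113081585-113081734, minus strand): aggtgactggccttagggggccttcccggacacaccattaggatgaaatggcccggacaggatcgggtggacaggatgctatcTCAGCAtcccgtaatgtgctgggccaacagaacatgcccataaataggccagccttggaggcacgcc

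The first base of the Maf core lay 57 bases before the start in Cryba1, 67 in Crybb3, 84 in Crybb1, 108 in Cryaa and 149 in Cryba2. Cryba4 held 3 copies, at 182, 135 and 77 bases, the first of which lies upstream of the stretch shown. The TATA boxes of Cryba1 and Crybb1 began 23 and 30 bases before the start.

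The 8 tested genes whose profile over the 6 arrays was most like the mean of the alpha and beta crystallins were looked for among 10907 others by Pearson's r, as a measure of shape alone. Of the 8, 6 were gamma crystallins, the other crystallin family of the lens: Crygn, Crygb, Crygd, Crygs, Cryga and Crygf, with r from 0.994 to 0.999. The others were Mip (r = 0.995), the water channel of lens fibres, and Nck2 (r = 0.995), an adaptor protein gene whose difference was only 0.27 (adjusted p = 0.333). The 6 arrays fall into 2 genotypes, so these values describe likeness and carry no test.

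All 6 gamma crystallins tested were called higher and showed the order of pools described above, with log2 differences from 2.08 (Crygn) to 2.99 (Crygd), a median of 2.60 and 0.0132% to 0.0438% of summed signal in wildtype against 0.129% to 0.406% in knockout pools. Without knockout pool 1 or 2 only 1 was called, without knockout pool 3 only 2, and without wildtype pool 1 only 4. Several gamma crystallins are close copies of each other, so some of these probe sets may share transcripts. Of 9 tested genes for membrane and cytoskeletal proteins of lens fibres, 1 was called higher and 0 lower, or 5 higher without wildtype pool 3, a fit that called 7.90% of all tested genes higher. Mip rose 3.37-fold (log2 difference 1.75, SE 0.32, adjusted p = 0.0283). In 7 of the 9 every knockout pool lay above every wildtype pool, as in 10.5% of all tested genes, and the list's median difference was 0.93. The 7 include Caprin2, whose wildtype mean of 5.85 was below the level needed for testing, so it was tested because of its knockout pools. Lim2, a fibre cell membrane protein, had a difference of 1.99 (adjusted p = 0.136), and Bfsp1 and Bfsp2, which form the beaded filaments of fibres, had differences of 1.37 and 0.88 (adjusted p = 0.268 and 0.148). Bfsp1 read 7.03, 7.23 and 9.20 in the knockout pools against 6.39 to 6.49 in wildtype, so its difference came largely from knockout pool 3. With its genes too dim to be tested, 12 genes in all, this list held 0.0260% to 0.0309% of summed signal in wildtype and 0.0445% to 0.0736% in knockout pools. Gja3, Dnase2b and Birc7, further lens markers, were too dim to be tested, with wildtype means of 5.31, 5.53 and 4.34 and knockout means of 6.39, 5.78 and 4.86. The part of lens tissue in the alpha and beta crystallin differences was not tested.

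**Figure D3:**
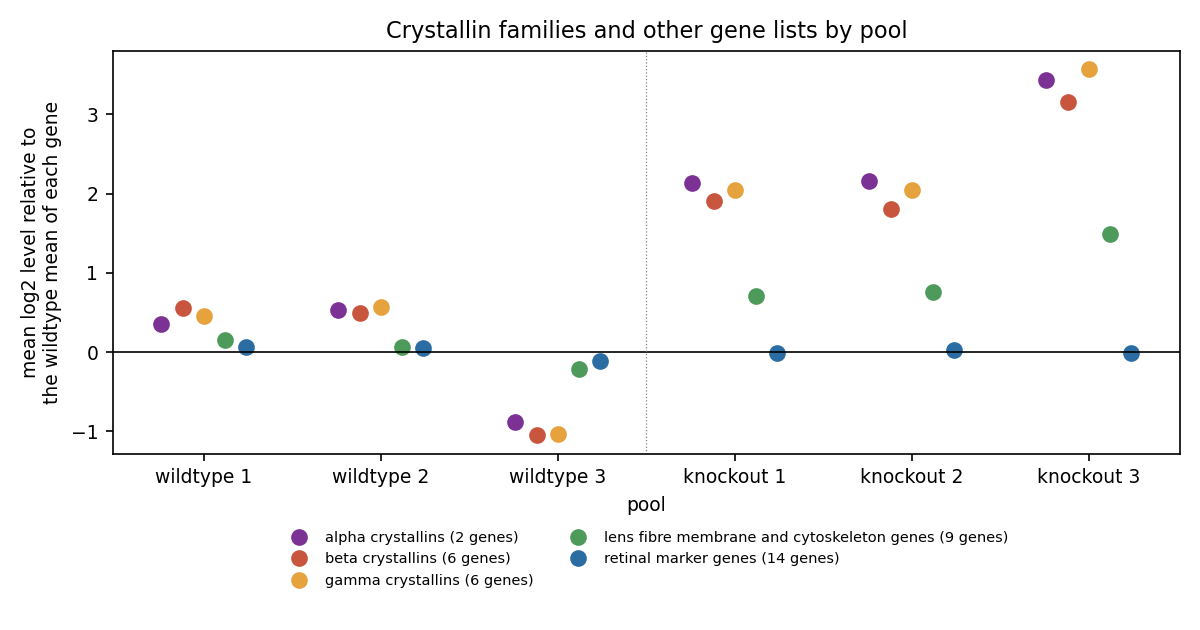
Mean log2 level of each gene list in each pool, relative to the wildtype mean of each gene, for alpha (2 genes), beta (6) and gamma (6) crystallins, lens fibre membrane and cytoskeleton genes (9) and retinal markers (14). The 3 crystallin families fall together at -1.05 to -0.88 in wildtype pool 3 and 3.16 to 3.57 in knockout pool 3. The mean of the retinal markers, of which 2 were called higher and 3 lower, stays between -0.11 and 0.06.

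The transcription factors of the lens were counted next. Of 11 tested, none showed the order of pools of the crystallins, and 0 were called higher and 1 lower (2.63% of all tested genes were called lower), with a median of -0.29. The 1 was Sox2, which is also a factor of retinal progenitors and fell by 0.56 on the log2 scale (adjusted p = 0.0108). It was not called in the values as deposited, with arrays centred on their medians, under the submitters' error model or with alike pools averaged. Without wildtype pool 3, 5 factors were called lower, as were 9.66% of all tested genes. Maf, which activates crystallin genes in fibre cells, had a difference of 0.33 (adjusted p = 0.697), and Prox1, a factor of fibre differentiation, one of -0.34 (adjusted p = 0.381). Most of these factors are also made in the retina, and Foxe3, a factor of the lens epithelium, was too dim to be tested (6.15 and 6.11 in wildtype and knockout means).

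Relatives of the alpha and beta crystallins outside the lens were counted from the same fit. Of 4 tested small heat shock relatives of the alpha crystallins, none was called in either direction, with differences from -0.20 to 0.47. The largest was that of Hspb1 (adjusted p = 0.381), whose wildtype pool 3 read 8.38, within the knockout range of 8.24 to 8.45. Hspb1 was called higher without wildtype pool 3 (difference 0.72, adjusted p = 0.00512), without both pools 3 (0.71, adjusted p = 0.00501), with the mean of its probe sets (0.90, adjusted p = 0.0167) and with the probe set of largest difference (1.34, adjusted p = 0.0454). Of 10 other heat shock and chaperone genes, 1 was called higher, Hspa8, which rose by 0.28 on the log2 scale (adjusted p = 0.0223), and none lower. The Hspa8 call was lost in 7 of 21 alternatives, among them arrays centred on their medians (difference 0.17, adjusted p = 0.832) and the fits without knockout pool 1 (adjusted p = 0.106) or 2 (0.134). Without wildtype pool 3, 3 of these chaperone genes were higher, in a fit that called 7.90% of all tested genes higher. No member of the wider beta-gamma fold family (Crybg1, Crybg2 and Crybg3) was bright enough to be tested. Of 7 genes that carry a crystallin-like name but encode enzymes, a thyroid hormone binding protein or clock proteins, none was called, with differences from -0.41 (Crym, adjusted p = 0.123) to 0.55 (Cryz, adjusted p = 0.246). Without wildtype pool 3, 2 of them were higher and 1 lower, beside 7.90% and 9.66% of all tested genes. Without knockout pool 3 Crym alone was lower (adjusted p = 0.0251).

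**Figure D4:**
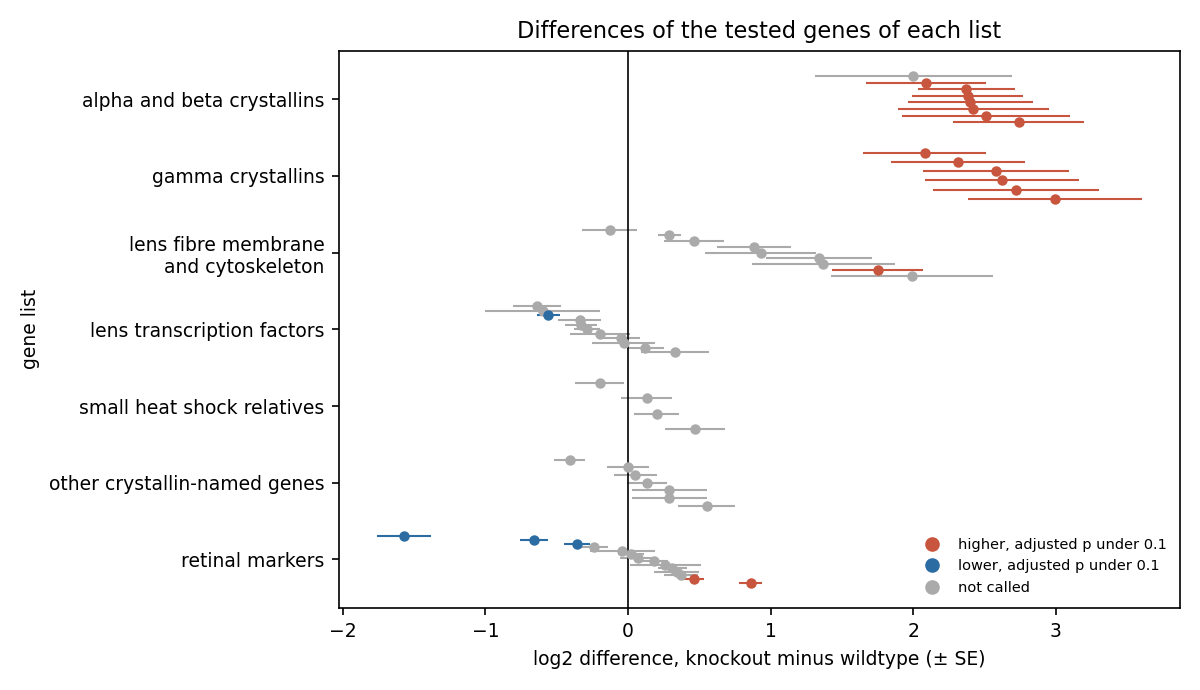
Log2 difference, knockout minus wildtype, with its SE for every tested gene of 7 lists, coloured by whether the gene was called. Alpha, beta and gamma crystallins lie between 2.00 and 2.99, fibre membrane and cytoskeleton genes between -0.13 and 1.99, and small heat shock relatives between -0.20 and 0.47.

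Markers of other tissues beside the retina were read in the same way. The shares of summed signal cover all genes of a list found on the array, including those too dim to be tested. For the vessel and the muscle list these were 10 genes each. The pigment epithelium list held 0.0203% to 0.0302% of summed signal in wildtype and 0.0225% to 0.0279% in knockout pools, with 0 of 7 tested genes higher and 1 lower (Pmel, a melanosome protein, log2 difference -0.52, adjusted p = 0.0948). The Pmel call was lost in 13 of 21 alternatives, among them the values as deposited (adjusted p = 0.310), arrays centred on their medians (0.499) and the fits without wildtype pool 1 or 2 or any 1 knockout pool (0.230 to 0.316). The vessel list had 0 of 4 called (0.0252% to 0.0261% of signal in wildtype, 0.0245% to 0.0252% in knockout), and muscle 0 of 4 (0.0122% to 0.0127% in wildtype, 0.0140% to 0.0169% in knockout). No blood marker was bright enough to be tested. The ciliary margin and iris list had 2 of 7 higher, Col9a1 and Wfdc1, and held 0.0263% to 0.0291% of signal in wildtype and 0.0656% to 0.0672% in knockout pools. Col9a1, a collagen chain gene, rose by 2.09, as much as Crybb3, but read 9.40, 9.42 and 9.45 in wildtype and 11.52, 11.54 and 11.47 in knockout pools. The SD of Col9a1 was 0.03 and 0.04 within genotypes, below that of each alpha and beta crystallin, and knockout pool 3 was its lowest knockout pool. Wfdc1 read 5.98, 5.89 and 5.61 against 7.08, 6.81 and 7.02 (log2 difference 1.14, adjusted p = 0.00898), and its wildtype mean of 5.82 was below the level needed for testing, so it too was tested because of its knockout pools. Among 14 retinal markers 2 were higher (Sncg and Stmn2) and 3 lower, among them Tfap2b and Lhx2, with a median of 0.13. The part of these tissues in the crystallin differences was not tested.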

How the data were processed

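The deposited table holds 1 linear intensity per probe set and array; how the authors summarised and scaled it is not stated in the labels. Of 45101 probe sets, 64 controls were left out. Symbols came from the platform annotation, updated through Entrez identifiers with RefSeq names (GRCm38.p6). Intensities were quantile normalised, floored at 1 and taken to log2(value + 16), which understates the change of dim genes. A gene was its brightest single-symbol probe set by mean level, and the 40% of genes with the lowest mean (7277) were left out of testing. The other 10916 went into limma 3.58.1 under R 4.3.3 (lmFit, eBayes with intensity trend, no covariate, two-sided, Benjamini-Hochberg, threshold 0.1 as in the labels). The submitters used the NIA Array Analysis Tool, per the labels, and its error model was an alternative.

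The members, gene lists, tests and alternatives were chosen with earlier results of these data known. Text names all members, Ccnd1, up to 4 called genes per list, tested neighbours that were called and the 8 most alike genes. Lim2, Bfsp1, Bfsp2, Maf, Prox1, Hspb1, Crym, Cryz, Krt5, Krt15, Rlbp1 and untested list genes were added after their values were seen. A comparison of protein sequences was not made. The fit was tested on simulated data. Figures were drawn with matplotlib 3.10.9.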

Additional observations from a re-analysis of the deposited data

How the results depend on the processing

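Each of the 8 alpha and beta crystallins had a positive difference in every alternative run, from 0.66 (Crybb2, without both pools 3) to 3.18 (Cryab). With every knockout pool above every wildtype pool, fits that dropped, averaged or blocked arrays had to give this sign, so it is no check there. The 7 called higher, beside 222 of all tested genes, became 1 (Cryba1) with the replicate block, beside 126. They became 0 with pools 1 and 2 averaged, beside 17 of all tested genes. The number ranged from 4 to 7 when 1 array was left out (4 without any 1 knockout pool). It was 5 at a threshold of 0.05 (beside 127 of all tested genes) or with no filter on low values (165). Without an intensity trend it was 6 (beside 150). It was 7 under the submitters' error model (beside 88) and 8 with the array set as a block (597). Whether replicate numbers pair the samples is not known. Deviations of same-numbered pools from their genotype means correlated at 0.17, -0.35 and -0.48. With 3 pools per genotype, the deviations of 1 pool depend on those of the others, so these values cannot decide it. The 222 genes called higher in all became 416 in the values as deposited, where the median difference was 0.13, 118 with arrays centred on their medians, 88 under the submitters' error model, 127 at a threshold of 0.05, 126 with the replicate block, 597 with the array set as a block, 17 with averaged pools and 1918 without both pools 3, and ran from 68 (without knockout pool 1) to 862 (without wildtype pool 3) when 1 array was left out. The 6 gamma crystallins higher became 0 with the replicate block or averaged pools, 1 without knockout pool 1 or 2, 2 without knockout pool 3 and 4 without wildtype pool 1. The 1 fibre membrane and cytoskeleton gene higher became 5 as deposited or without wildtype pool 3, 6 with the array set as a block and 7 without both pools 3. The difference of Maf was -0.07 without both pools 3. The cause of these changes was not tested. The 6 arrays, with no detection calls used here, limit what can be said of dim genes such as Crybb2.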

Other observations

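Among the cornea and surface ectoderm markers 0 of 7 tested genes were called. With its genes too dim to be tested, the list held 0.0142% to 0.0181% of signal in wildtype and 0.0164% to 0.0251% in knockout pools. A pair of keratin genes of surface epithelia differed from the crystallins in the place of knockout pool 3. In Krt15, as in the crystallins, wildtype pool 3 was the lowest array, whereas in Krt5 it was the highest wildtype pool. Krt15 read 6.86, 6.95 and 5.71 in wildtype pools 1, 2 and 3 and 8.74, 8.62 and 7.30 in knockout pools 1, 2 and 3 (log2 difference 1.71, limma adjusted p = 0.104). Krt15 was called higher in 10 of 21 alternatives, among them the values as deposited (adjusted p = 0.0486), arrays centred on their medians (0.0678) and the fits without wildtype pool 3 (0.0733) or knockout pool 3 (0.0435). Krt5 read 6.93, 6.80 and 7.16 in wildtype and 8.22, 8.18 and 7.01 in knockout pools (difference 0.84, adjusted p = 0.270), and was called higher without knockout pool 3 (adjusted p = 0.0180) and without both pools 3 (0.000339). Without knockout pool 3, 2 markers of this list were thus higher, where 1.17% of all tested genes were. Without both pools 3 it was 4, in a fit that called 17.6% of all tested genes higher. For Krt15 and Krt5, knockout pool 3, the highest pool for every alpha and beta crystallin, was the lowest knockout pool. Rlbp1, a retinoid binding protein gene of pigment epithelium and Muller glia, did follow the crystallin order, with 8.19, 8.41 and 7.30 in wildtype and 8.82, 8.73 and 9.50 in knockout pools (difference 1.05, adjusted p = 0.148, and called higher without wildtype pool 3 at 0.0786). These genes were picked after their values were seen.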
